A study of Mus musculus with 4 samples.

Results

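The 32 genes described here are the core of the transcriptional response to low oxygen together with the enzymes of glycolysis, and they were taken as a fixed list of symbols out of the 32285 gene IDs of the count matrices. All 32 were found by symbol. Aldoa stood under 2 gene IDs, of which the one with nearly all UMIs was used. When oxygen is short, prolyl hydroxylases (Egln1, Egln3) no longer mark the transcription factor subunit Hif1a for destruction, and Hif1a then switches on genes for glucose uptake, glycolysis, lactate export and mitophagy. The core letters of the DNA sequence that the factor binds are ACGTG or GCGTG. The program is active in many solid tumours, where oxygen is often short, and also in neutrophils, which live largely on glycolysis.

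The cells came from whole prostate tumours of 4 castrated mice, 2 of each genotype, measured by droplet single-cell RNA-seq of 3′ ends (unique molecular identifiers, UMIs, each stand for 1 captured RNA molecule). All mice carried PB-Cre, a recombinase under a probasin promoter and so active in prostate epithelium, with the mutant SpopF133V and the mTmG membrane reporter. These are among the alleles of the genotype PSp. In PCSp mice Chd1L/L, a floxed chromatin remodeller gene, was present in addition. All were castrated at 9 months of age and tumours were taken 1 month later, so both groups are of castrated mice. The promoter is not meant to drive Cre in immune or stromal cells, and these mice carry the floxed alleles in all cells.

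The 4 libraries held from 6539 to 9656 barcodes and from 66874620 to 90839725 UMIs, with medians from 2289 to 3757 UMIs per barcode, the lowest being PCSp mouse 2. Pairs of libraries shared 11 to 27 barcode sequences, at most 0.372% of the smaller library. Cells were clustered, and clusters were named from marker genes, as epithelial-like, neutrophil-like, macrophage-like, fibroblast-like, T and NK-like, endothelial-like, and smooth muscle and pericyte-like. The last class was small (62 to 117 cells per mouse), was used for levels only, and also held glial RNA: 10 glial markers summed to between 1940 and 3405 CPM there. CPM is the unit of all levels here: the UMIs of a gene per 1000000 UMIs of that class in 1 mouse. They count 3′ ends and are not divided by gene length. They are used here to compare classes and mice for 1 gene, and not 1 gene with another. Where 2 genes of a pair are given as shares below, those shares too are for comparing classes. Chd1 in epithelial-like cells stood at 91.4 and 78.1 CPM with PSp and at 60.2 and 56.4 with PCSp. In each other class tested it was higher in both PCSp mice than in both PSp mice. In T and NK-like cells, for example, it was at 101 and 90.7 CPM with PSp and 143 and 131 with PCSp. None of these differences passed the edgeR test used below (adjusted p = 0.381 in epithelial-like cells). The 3′ reads need not cover the deleted part of Chd1, so this is only a partial check of the labels.

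To show the DNA that the letters ACGTG and GCGTG refer to, 5 promoter stretches of member genes follow. They were taken from RefSeq on GRCm38.p6, read 5′ to 3′ on the gene's strand, and hold no base of the gene's exons as GENCODE annotates them. The RefSeq starts used for Ldha and Slc16a3 lie downstream of the first base of the GENCODE gene, so these 2 stretches fall inside that gene's span. Capitals mark each match to ACGTG or GCGTG on either strand (CACGT and CACGC are the matches on the other strand, and neighbouring matches overlap in CACGTG). Ldha and Bnip3 hold the most matches, Pgk1 has 2 matches, Slc16a3 has 1, and those of P4ha1 are widely spaced.
Ldha: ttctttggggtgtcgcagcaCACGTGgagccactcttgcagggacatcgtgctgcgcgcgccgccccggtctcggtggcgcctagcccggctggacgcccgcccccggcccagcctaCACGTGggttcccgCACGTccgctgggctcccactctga
Pgk1: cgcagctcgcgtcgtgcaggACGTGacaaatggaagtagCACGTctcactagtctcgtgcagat
Bnip3: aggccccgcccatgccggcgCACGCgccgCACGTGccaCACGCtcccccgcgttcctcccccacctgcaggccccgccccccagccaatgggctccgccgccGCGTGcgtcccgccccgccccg
P4ha1: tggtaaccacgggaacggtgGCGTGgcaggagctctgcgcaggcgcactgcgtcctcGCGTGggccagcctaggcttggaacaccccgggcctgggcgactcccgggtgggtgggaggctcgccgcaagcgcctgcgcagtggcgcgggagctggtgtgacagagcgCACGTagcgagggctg
Slc16a3: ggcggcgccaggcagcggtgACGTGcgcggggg

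These stretches lie at chr7:46845639-46845794 (plus strand) for Ldha, chrX:106186930-106186993 (plus) for Pgk1, chr7:138909520-138909643 (minus) for Bnip3, chr10:59323113-59323295 (plus) for P4ha1 and chr11:120949020-120949052 (plus) for Slc16a3. Of the 32 genes, 30 had a promoter entry, and Bnip3l and Slc2a3 had none. A window of 300 bases round the start held ACGTG or GCGTG in 27 of these 30 genes, against 46.7% of all 27025 genes with an entry (any of a gene's windows counted). ACGTG alone was found in 21 of the 30, against 21.8% of all genes. The members' windows were richer in G and C (median 62.8%) than those of all genes (median 52.8%), and the part of base composition in the difference was not tested. Eno2, Gpi1 and Tpi1 had neither form in these windows. A match is a description of the letters and not evidence of binding.

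Neutrophil-like cells held the highest mean level of 19 of the 32 genes. For 12 of these no mouse overlapped with the second class, while Hif1a, Egln3, Hk2, Pfkp, Aldoa, Tpi1 and Ldha overlapped with it, Pfkp and Ldha at nearly equal means (ratios 1.00 and 1.02). The share of all genes that are highest in neutrophil-like cells was not computed. Both counts therefore describe the list and do not set it apart from other genes. The CPM of all 32 genes summed to 9251 ± 523 (SD, n = 4 mice) in neutrophil-like cells and to 6248 ± 621 in epithelial-like cells. It came to 4914 ± 592 in macrophage-like, 4731 ± 849 in smooth muscle and pericyte-like, 3391 ± 203 in T and NK-like, 3234 ± 185 in endothelial-like and 2397 ± 203 in fibroblast-like cells. The lowest neutrophil sum of any mouse (8719) lay above the highest epithelial sum (6818). CPM also depends on the other RNA of a class. Ribosomal protein genes came to 51694 to 61378 CPM in neutrophil-like and 178474 to 195915 CPM in epithelial-like cells. Mitochondrially encoded genes came to 10873 to 19860 and 45186 to 68200 CPM in the same order. Less of such RNA raises the CPM of all other genes, and its part in the class differences was not tested. Because the classes come from clustering on all genes, these differences are described and not tested. Of the other members, Hk1, Gpi1, Aldoc, Eno2 and Ankrd37 had their highest mean in smooth muscle and pericyte-like cells, Egln1, Pfkfb3 and Ddit4 in endothelial-like cells, Pgk1, Pdk1 and Car9 in epithelial-like cells, Adm in fibroblast-like cells and Gapdh in macrophage-like cells. Among these only Ddit4 and Car9 had no overlap with the second class. Ratios of the highest to the second mean were 1.01 for Gpi1 and Adm, 1.02 for Gapdh and 1.07 for Hk1, Pgk1 and Pfkfb3.

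**Figure D1:**
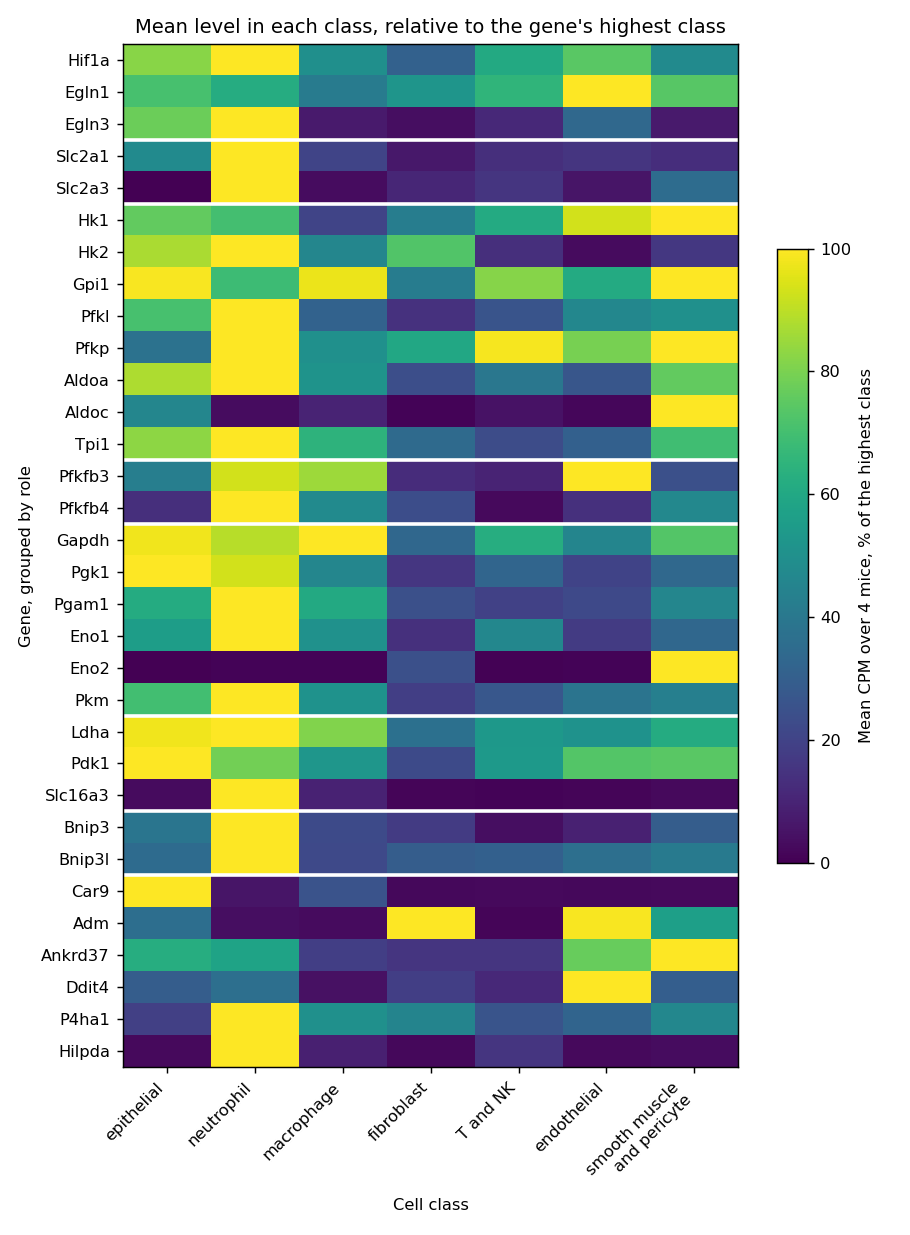
Heat map of the 32 genes (rows, grouped by role, white lines between roles) in 7 cell classes (columns). Colour gives the mean CPM over 4 mice as a percentage of the gene's highest class; the neutrophil column is at 100% for 19 genes.

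Oxygen sensing was spread over classes in different ways for its members. Hif1a (chr12:73901375-73947530, GRCm38), the regulated subunit of the factor, was at 261 ± 19.3 CPM (SD, n = 4) in neutrophil-like cells, 215 ± 39.5 in epithelial-like cells and 194 ± 33.1 in endothelial-like cells, and the epithelial range overlapped with both others while neutrophil-like and endothelial-like cells did not overlap. It was lowest in fibroblast-like cells (81.4 ± 24.5). Egln1, the main prolyl hydroxylase, differed only 2.40-fold between its highest class (endothelial-like, 104 ± 13.7 CPM) and its lowest (macrophage-like, 43.2 ± 7.77). Egln3, a prolyl hydroxylase that is itself induced by the factor, spanned 28.1-fold. It was high in neutrophil-like (88.9 ± 10.3 CPM) and epithelial-like cells (68.9 ± 18.5), which overlapped, and reached 3.16 ± 1.65 in fibroblast-like cells.

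Both glucose transporters were higher in neutrophils than in epithelium, Slc2a3 by far more than Slc2a1. Slc2a1 (GLUT1) reached 249, 220, 176 and 201 CPM in neutrophil-like cells (PSp mice 1 and 2, then PCSp mice 1 and 2). In epithelial-like cells it was at 89.6, 102, 110 and 102 CPM in the same order. Every mouse thus had more in its neutrophils. Slc2a3 (GLUT3, a high-affinity transporter; chr6:122727809-122801640) was at 165, 174, 138 and 173 CPM in neutrophil-like cells but at 0.611, 0.491, 0.680 and 0.703 in epithelial-like cells, a ratio of mean levels of 261. The epithelial values rest on 31 to 42 UMIs per mouse, and the 10 neutrophil markers in epithelial-like cells stood at 0.0962% to 0.165% of their neutrophil level, while Slc2a3 stood at 0.283% to 0.494%. Of the UMIs of both transporters together, Slc2a3 made up 43.5% in neutrophil-like, 46.6% in T and NK-like, 55.5% in fibroblast-like and 68.0% in smooth muscle and pericyte-like cells, 20.2% in endothelial-like, 10.9% in macrophage-like and 0.613% in epithelial-like cells.

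Slc16a3 and Hilpda stood furthest above the next class of all genes highest in neutrophils. Slc16a3 (MCT4, the lactate exporter of glycolytic cells; chr11:120948480-120960868) reached 514, 647, 544 and 682 CPM in neutrophil-like cells. The next class, macrophage-like cells, had 50.8, 62.1, 57.8 and 54.9 CPM, so the mean was 10.6 times higher in neutrophils and no mouse overlapped. Hilpda (a small lipid droplet protein that restrains triglyceride breakdown; chr6:29272488-29275446) was at 943, 665, 623 and 616 CPM in neutrophil-like cells. Second came T and NK-like cells, with 104, 117, 88.5 and 125 CPM, 6.56 times lower on average. Thinned to 1000 UMIs per cell, 36.1% of neutrophil-like cells had a UMI of Slc16a3 and 21.7% one of Hilpda, against 3.02% and 3.07% of macrophage-like cells and 1.45% and 1.64% of epithelial-like cells. Unthinned, the shares were 51.3% and 28.2% of neutrophil-like cells, 16.3% and 9.41% of macrophage-like cells, and 14.5% and 15.5% of epithelial-like cells. Thinning left out cells below that depth, from 3.21% to 6.52% of neutrophil-like, 22.3% to 27.7% of macrophage-like and 8.72% to 11.3% of epithelial-like cells. Median depths per mouse ran from 1635 to 2743 UMIs in neutrophil-like cells and from 7511 to 13616 in epithelial-like cells.

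In T and NK-like cells these genes parted. Their Hilpda level was 10.997% to 20.2% of that of neutrophils of the same mouse, while Slc16a3 was at 0.848% to 1.40% and the 10 neutrophil markers, 1 of them at 0, at 0.127% to 0.200%. In every mouse this share of the neutrophil level was larger for Hilpda than for the neutrophil markers. The source of the Hilpda RNA in these cells was not tested. In the same cells Bnip3 was at 2.63% to 4.31% of the neutrophil level. After thinning, 9.51% ± 1.58 (SD, n = 4) of T and NK-like cells had a UMI of Hilpda.

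**Figure D2:**
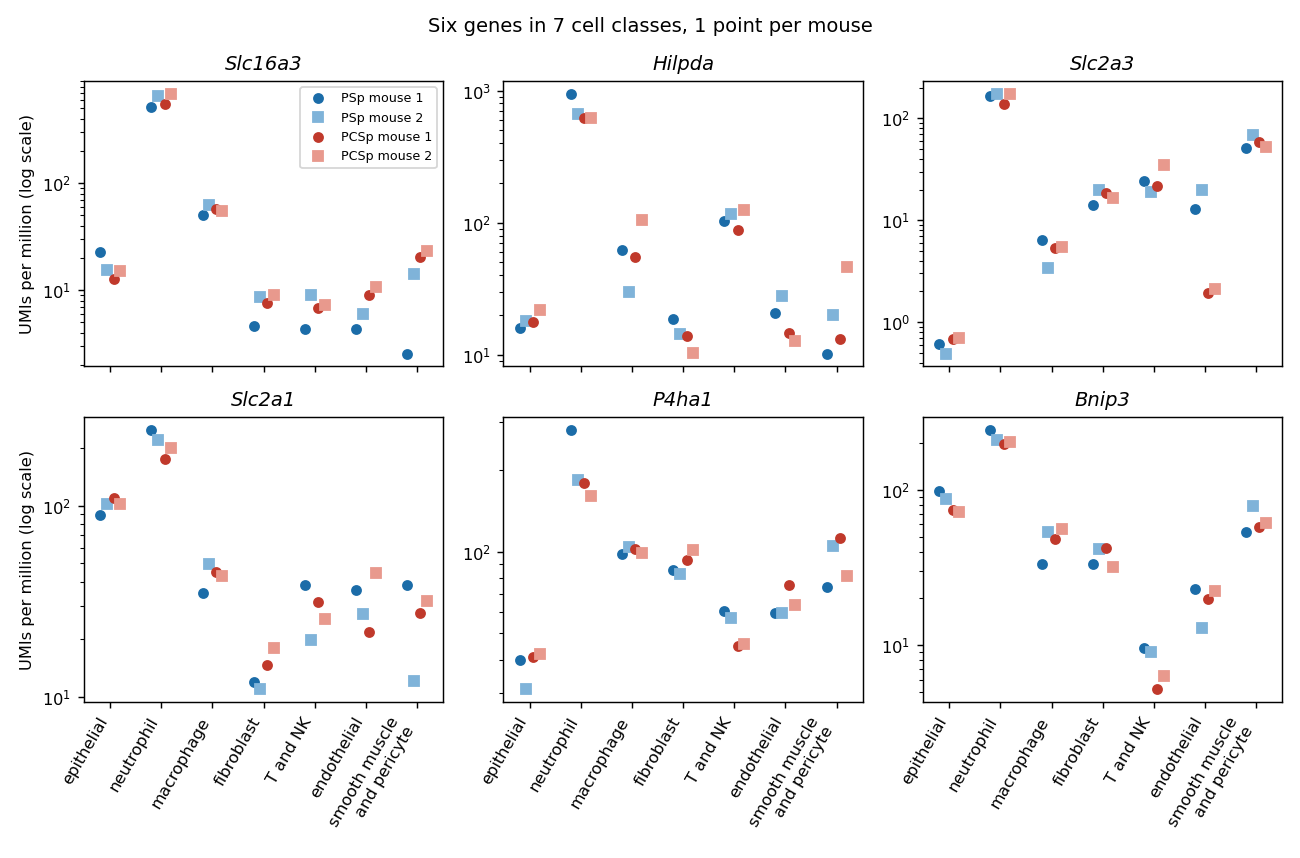
CPM (log axis) of 6 genes in 7 cell classes, with 1 point per mouse (blue PSp, red PCSp). For Slc16a3 and Hilpda all 4 neutrophil points lie above every point of every other class, and Slc2a3 spans from below 1 CPM in epithelial cells to 174 in neutrophils.

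The preparatory phase of glycolysis spends ATP to split glucose, and its genes in the list are mostly pairs of isozymes whose shares differed by class. Hk2, the inducible hexokinase, made up 79.3% of Hk1 and Hk2 UMIs in epithelial-like cells, 81.9% in neutrophil-like and 85.2% in fibroblast-like cells, but 9.53% (at most 11.2% in any mouse) in endothelial-like cells, where Hk1 was at 63.3 ± 3.12 CPM and Hk2 at 6.71 ± 1.31. T and NK-like cells were between these, at 41.9%. Pfkp, the platelet form of phosphofructokinase, made up 29.4% of Pfkp and Pfkl in epithelial-like cells and 76.9% in fibroblast-like cells, without overlap between mice. Aldoc made up 3.68% of both aldolases in epithelial-like cells and 0.245% in neutrophil-like cells. Aldoa, the main aldolase, was at 943 ± 36.2 CPM in neutrophil-like, 827 ± 102 in epithelial-like, 717 ± 242 in smooth muscle and pericyte-like, 486 ± 76.4 in macrophage-like, 372 ± 35.9 in T and NK-like and 226 ± 9.22 in fibroblast-like cells. Gpi1 and Tpi1, which have no isozyme in the list, differed 2.38-fold and 4.33-fold between highest and lowest class.

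Of the regulators of phosphofructokinase, Pfkfb3 (whose product raises the activator fructose 2,6-bisphosphate) was highest in endothelial-like cells (84.7 ± 32.1 CPM) and nearly as high in neutrophil-like (78.9 ± 16.8) and macrophage-like cells (72.3 ± 7.70), and these classes overlapped. Pfkfb4 was highest in neutrophil-like cells (38.9 ± 3.98 CPM) and did not overlap with the next class, macrophage-like cells (18.6 ± 4.63).

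The payoff phase of glycolysis yields ATP and pyruvate. Its 6 genes summed to 3455 ± 178 CPM (SD, n = 4) in neutrophil-like, 2927 ± 401 in epithelial-like and 2538 ± 330 in macrophage-like cells, with overlap between neighbours in this order, and to 874 ± 139 in fibroblast-like cells. Gapdh was at 1360 ± 183 CPM in macrophage-like, 1332 ± 162 in epithelial-like, 1212 ± 89.4 in neutrophil-like, 995 ± 164 in smooth muscle and pericyte-like, 848 ± 62.1 in T and NK-like, 621 ± 91.7 in endothelial-like and 452 ± 87.7 in fibroblast-like cells. The first 3 classes overlapped. Pkm, the pyruvate kinase gene, was at 860 ± 55.7 CPM in neutrophil-like, 598 ± 90.0 in epithelial-like, 371 ± 115 in smooth muscle and pericyte-like and 331 ± 68.3 in endothelial-like cells. Ldha, lactate dehydrogenase A, was at 547 ± 36.6 CPM in neutrophil-like and 535 ± 46.8 in epithelial-like cells, which overlapped. It was at 443 ± 80.4 CPM in macrophage-like, 293 ± 11.5 in T and NK-like, 279 ± 21.8 in endothelial-like and 203 ± 29.0 in fibroblast-like cells. Eno1 was 1.79 times and Pgam1 1.63 times higher in neutrophil-like than in epithelial-like cells, and neither overlapped between mice. Eno1 and Eno1b are near-identical copies, so their reads could be divided between them by the counting.

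Eno2, the neuronal enolase, had its highest level outside epithelium and neutrophils. In smooth muscle and pericyte-like cells it was at 79.3, 68.3, 42.1 and 8.67 CPM (31, 34, 29 and 3 UMIs), 4.10 times the mean of fibroblast-like cells (12.2, 13.5, 11.7 and 10.9 CPM). PCSp mouse 2 was far below the others there and overlapped with the fibroblasts. It made up 20.4% of Eno1 and Eno2 UMIs in that class and 14.3% in fibroblast-like cells, but 0.0544% in epithelial-like cells. Aldoc, another gene known from nervous tissue, also had its highest mean in this class (28.1, 147, 82.7 and 14.5 CPM), with the glial markers given above in the same cells. It overlapped with epithelial-like cells (29.95, 31.9, 29.3 and 33.7 CPM), which were higher in PSp mouse 1 and PCSp mouse 2. The part of glial cells in the Eno2 and Aldoc levels of this class was not tested.

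The remaining targets of the factor divided by tissue compartment. Car9, a membrane carbonic anhydrase, was an epithelial gene at 42.7 and 19.6 CPM in PSp and 19.1 and 25.5 in PCSp mice, and the next class, macrophage-like cells, had at most 9.05. Ddit4, an inhibitor of mTORC1, was at 127, 93.5, 116 and 124 CPM in endothelial-like cells, 2.74 times the mean of neutrophil-like cells and without overlap. Adm (adrenomedullin, a peptide that dilates vessels) was at 52.7 ± 11.5 CPM in fibroblast-like and 52.2 ± 6.97 in endothelial-like cells, and at 1.99 ± 0.730 in neutrophil-like cells. P4ha1, a collagen prolyl hydroxylase, was at 281, 184, 178 and 160 CPM in neutrophil-like cells and at 98.1, 104, 103 and 98.7 in macrophage-like cells, again with no overlap. Both mitophagy receptors were highest in neutrophils: Bnip3 at 214 ± 20.3 CPM (epithelial-like 82.9 ± 12.2) and Bnip3l at 513 ± 60.1 CPM (epithelial-like 179 ± 4.33).

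Neutrophil-like cells fell into 3 clusters, numbered 2, 3 and 11, and the genes were not high in the same ones. Cluster 3, led by Ccl3, Ccl4 and Clec4d, had Hilpda at 2198, 1443, 1158 and 1309 CPM (PSp mice 1 and 2, PCSp mice 1 and 2). Cluster 11, led by S100a9 and S100a8, had 145, 181, 118 and 199. Slc16a3 ran the other way, with 865, 984, 876 and 923 CPM in cluster 11 and 177, 276, 154 and 249 in cluster 3. For both genes the mice of one cluster lay apart from those of the other.

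Bnip3l followed Hilpda (pooled level 1036 CPM in cluster 3, 374 in cluster 2 and 314 in cluster 11), as did P4ha1 (369, 200 and 98.9) and Tpi1 (665, 401 and 220). Slc2a3 followed Slc16a3 (246 CPM in cluster 11, 114 in cluster 2 and 73.3 in cluster 3). Hk2 was highest in cluster 2 (326 CPM, against 273 in cluster 3 and 123 in cluster 11). Gapdh (1192 to 1223 CPM) and Pkm (814 to 890) were nearly level across the clusters. The clusters were formed on all genes, these included, and get no test.

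**Figure D3:**
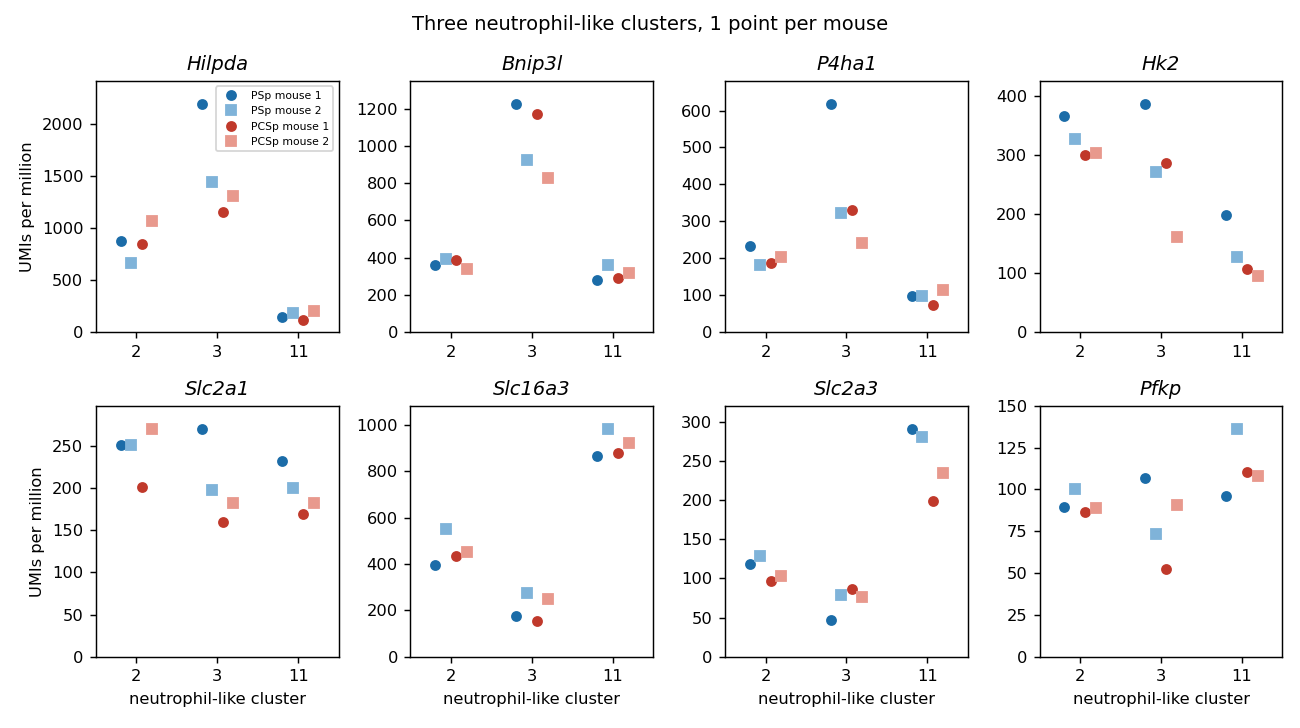
CPM of 8 genes in neutrophil-like clusters 2, 3 and 11, with 1 point per mouse (blue PSp, red PCSp) and axes from 0. Hilpda, Bnip3l and P4ha1 are highest in cluster 3, Slc16a3 and Slc2a3 in cluster 11, and Hk2 is lowest in cluster 11 in each mouse.

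Within the epithelium the 32 genes summed to as little as 2621 CPM in sub-cluster 4, led by Psca and Upk1a, and to 7721 CPM in basal sub-cluster 8, led by Lgals7, Krt16 and Krt6a. One unnamed sub-cluster of shallow cells (1, median 1394 UMIs) came to 7943. Sub-cluster 8 had the highest pooled Pgk1 (724 CPM) and Car9 (47.2) of the basal sub-clusters, while the larger basal sub-cluster 3, led by Krt14 and Fst, had Pgk1 at 238 and Car9 at 19.4. Hif1a ran opposite to Pgk1 and Car9 there: 401 CPM in sub-cluster 3 and 214 in sub-cluster 8. Not all members did so: Adm (49.3 CPM) and Pfkp (63.5 CPM) were highest of all epithelial sub-clusters in sub-cluster 3. In each of the 4 mice Hif1a was higher in sub-cluster 3 (367, 331, 436 and 450 CPM) than in sub-cluster 8 (202, 151, 201 and 298), and Egln3 was lower (33.6, 45.3, 26.5 and 26.0 against 130, 114, 120 and 76.5).

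The comparison of genotypes asked whether loss of Chd1, added to the alleles that both groups share, changed the program in castrated tumours. In the epithelium no member passed the test. Most glycolytic enzymes nevertheless stood lower with PCSp in each mouse, and these values are given as a description. UMIs were summed per mouse and class and tested with edgeR's quasi-likelihood F-test, adjusted over all genes (Benjamini-Hochberg). Log2 fold changes below are PCSp minus PSp, and the labels do not say more of the replicates than that they are separate tumours.

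In epithelial-like cells 0 of 32 members passed, as did 0 of 16240 genes (0.0%) by edgeR. The smallest adjusted p of a member was 0.468. DESeq2 called 177 genes (1.09%) and 1 member, Eno1 (adjusted p = 0.0466). At an unadjusted p under 0.05, 13 members were lower in PCSp, where 3.53% of all genes were, and 0 were higher, where 4.01% of all genes were. For 18 of 32 members the 2 PCSp values were the 2 lowest, against 17.4% of all genes tested. For 5 members (Hif1a, Slc2a1, Slc2a3, P4ha1 and Eno2) they were the 2 highest, and the share of all genes for this was not computed. The median log2 fold change was -0.20 over the members and -0.01 over all genes. Summed over the 32 genes, the CPM was 6818 and 6745 for PSp and 5622 and 5809 for PCSp.

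The 6 genes of the payoff phase made up much of that sum, with 3278 and 3254 CPM in PSp and 2483 and 2691 in PCSp mice. Pgk1 (phosphoglycerate kinase; chrX:106187100-106203699) was at 528 and 440 CPM in PSp and 325 and 379 in PCSp mice. Its log2 fold change was -0.48 (SE 0.13, unadjusted p = 0.0129, adjusted p = 0.521 by edgeR). Eno1 (enolase) was at 335 and 339 CPM in PSp and 266 and 272 in PCSp mice, or on the log2 scale -0.35 (SE 0.08, adjusted p = 0.468 by edgeR). Pgam1 (phosphoglycerate mutase) was at 320 and 290 against 244 and 247 CPM. Pkm was at 655 and 690 against 495 and 553 CPM, and Gapdh at 1440 and 1495 against 1153 and 1241. For these 5 enzymes the groups did not overlap. They were printed for their small unadjusted p, so the lack of overlap follows largely from that choice.

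The preparatory phase had 7 of 8 genes lower, with a median log2 fold change of -0.26 against -0.34 for the payoff phase. Aldoa was at 865 and 955 CPM in PSp and 748 and 741 in PCSp mice (log2 fold change -0.31, SE 0.10, adjusted p = 0.590 by edgeR). Gpi1, glucose phosphate isomerase, was at 259 and 276 against 226 and 226 CPM. Tpi1, triose phosphate isomerase, was at 338 and 363 against 292 and 298 CPM, and both phosphofructokinases stood lower too. Pfkp was at 42.3 and 38.5 against 33.1 and 34.1 CPM and Pfkl at 99.3 and 92.9 against 78.5 and 84.5. Outside glycolysis, Bnip3 and Egln3 were of the same kind. Bnip3 was at 98.3 and 87.2 against 74.4 and 71.9 CPM (log2 fold change -0.36, SE 0.08, adjusted p = 0.468 by edgeR), and Egln3 at 95.4 and 67.8 against 58.1 and 54.5 CPM (-0.55, SE 0.16, adjusted p = 0.554). In none of these genes did the genotypes overlap, but they too were printed for a small unadjusted p.

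Hif1a itself was not lower. It was at 213 and 163 CPM in PSp and 224 and 259 in PCSp mice, or on the log2 scale 0.34 (SE 0.15, adjusted p = 0.694 by edgeR). Slc2a1 was at 89.6 and 102 against 110 and 102 CPM. Bnip3l (184 and 174 against 177 and 180 CPM), Adm, Aldoc and Hilpda overlapped between genotypes. Car9 overlapped as well, with PSp mouse 1 apart from the rest (42.7 CPM against 19.6 in PSp mouse 2).

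**Figure D4:**
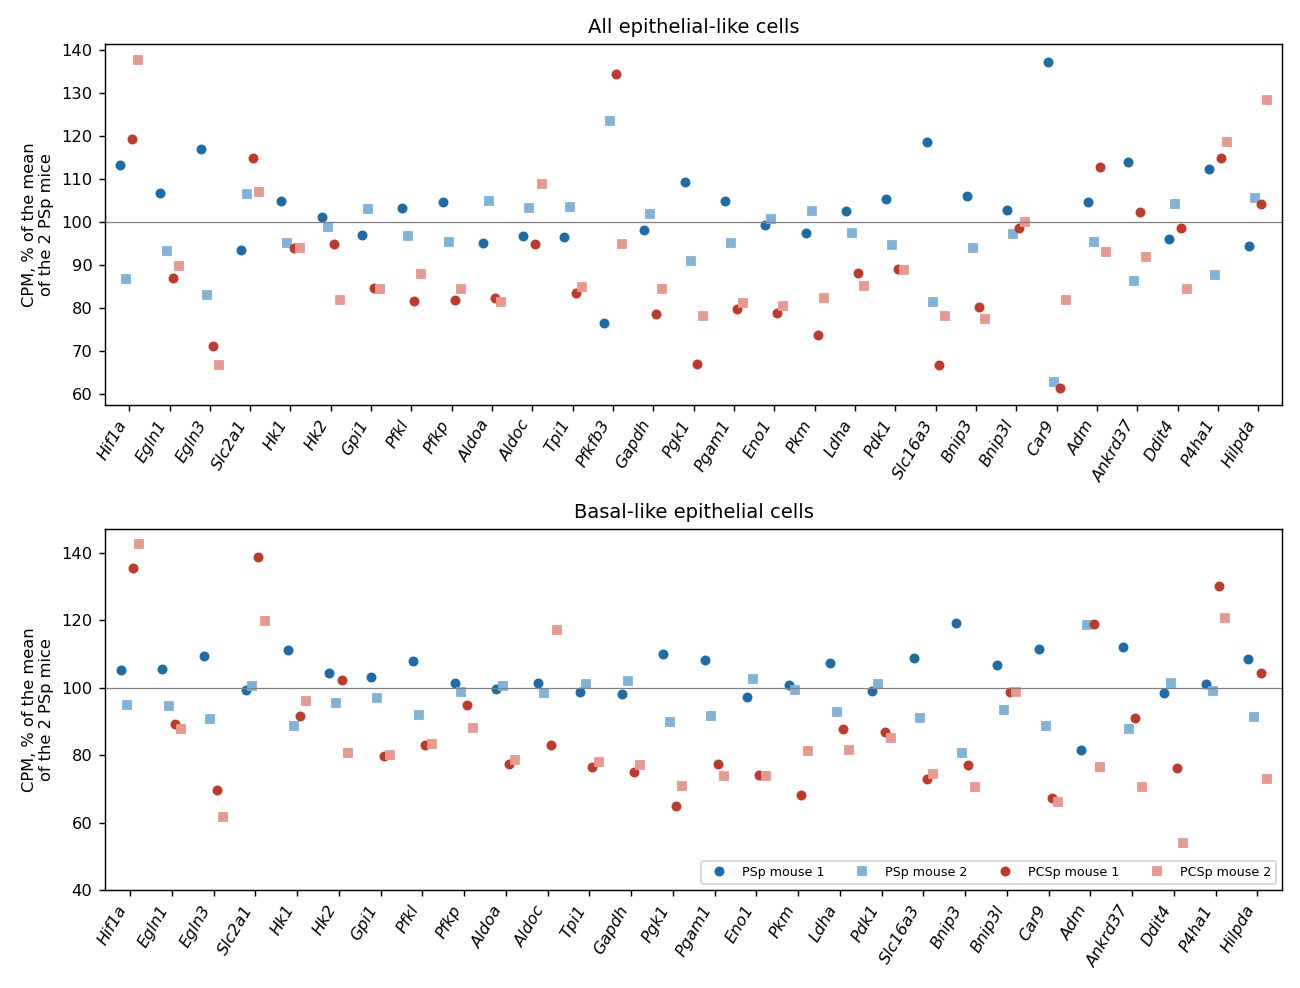
CPM of each gene as a percentage of the mean of the 2 PSp mice, in all epithelial-like cells (top) and basal-like cells (bottom), for genes with a mean of at least 10 CPM; 1 point per mouse. For most glycolytic enzymes the PCSp points (red) lie below the PSp points (blue), while for Hif1a they lie above.

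Measures of the cells moved with genotype in the same libraries. Mitochondrially encoded genes in epithelial-like cells came to 55408 and 68200 CPM in PSp and 50868 and 45186 in PCSp mice. The 10 fibroblast markers in these cells summed to 304 and 234 CPM in PSp and 489 and 394 in PCSp mice, with none at 0, and the 10 neutrophil markers to 27.7 and 31.3 against 43.0 and 49.98. Median depth was 10380 and 13616 against 9165 and 7511 UMIs per cell. Their part in the lower enzyme levels was not tested. When sub-clusters were balanced in number across mice, the members' median was -0.16, and with cells of at least 3000 UMIs it was -0.22.

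In basal-like cells, the largest named epithelial subclass over the 4 mice, 28 members tested were lower with PCSp and 3 higher. Again 0 of 31 members tested passed by edgeR, where 54 of 13735 genes did (0.393%), but the smallest adjusted p was 0.0654 (Gapdh). DESeq2 called 11 members, 10 of them lower, and 2.02% of genes. At an unadjusted p under 0.05, 16 members were lower, against 7.58% of all genes, and 3 were higher (Hif1a, Slc2a1 and P4ha1), against 7.79% of all genes. The 2 PCSp values were the 2 lowest for 18 members, against 21.4% of all genes. They were the 2 highest for 3 members, and the share of all genes for this was not computed. The median log2 fold change was -0.27 over the members and -0.002 over all genes, of which 50.3% were lower.

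Gapdh in basal-like cells (chr6:125161715-125166467) was at 1477 and 1533 CPM in PSp and 1130 and 1163 in PCSp mice, which is -0.42 on the log2 scale (SE 0.07). Eno1 was at 374 and 395 against 285 and 284 CPM (log2 fold change -0.46, SE 0.08, adjusted p = 0.0809 by edgeR). Pgk1 was at 586 and 478 against 346 and 377 CPM (-0.58, SE 0.10, adjusted p = 0.0849 by edgeR), and Aldoa at 748 and 755 against 583 and 590 CPM (-0.39, SE 0.07). All 4 genes were apart between genotypes, and they were the 4 of smallest unadjusted p in these cells. Hif1a stood on the other side, at 276 and 249 CPM in PSp and 356 and 374 in PCSp mice (0.45, SE 0.08, adjusted p = 0.0850 by edgeR). Egln3, at 85.9 and 71.1 against 54.7 and 48.5 CPM, was lower where Hif1a was higher.

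The mix of basal sub-clusters differed between the mice. The glycolysis-rich sub-cluster 8 made up 34.2% and 25.4% of basal-like cells in PSp and 16.9% and 28.3% in PCSp mice, and the Hif1a-rich sub-cluster 3 made up 42.9% and 52.4% against 66.1% and 48.7%. Inside sub-cluster 8 the 32 genes summed to 8535 and 7848 CPM in PSp and 7308 and 6529 in PCSp mice. Eno1 there was at 434 and 464 against 364 and 329 CPM. Inside sub-cluster 3 the sums were 5023 and 5890 against 4723 and 4840, and Eno1 was at 273 and 336 against 238 and 237 CPM. Of the other 3 basal sub-clusters, the smaller sub-cluster 9 had sums of 7057 and 6803 against 6362 and 5947. The genotypes overlapped in sub-cluster 2 (6062 and 8281 against 6452 and 6225) and in sub-cluster 13 (4221 and 3436 against 3610 and 3819). In sub-cluster 3 Pgk1 overlapped (216 and 338 against 202 and 224 CPM), while Hif1a did not (367 and 331 against 436 and 450).

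Luminal progenitor-like cells were close to this: 0 of 30 members passed by edgeR, as did 0.0% of 13916 genes, while DESeq2 called 2 (Pfkp and Pkm) and 0.848% of genes. By unadjusted p, 14 members were lower (4.88% of all genes) and 1 was higher (4.53% of all genes). The median over all members tested was -0.23, against -0.009 over all genes. Pfkp was at 33.9 and 34.2 CPM in PSp and 23.5 and 24.1 in PCSp mice (log2 fold change -0.54, SE 0.09, adjusted p = 0.230 by edgeR).

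**Figure D5:**
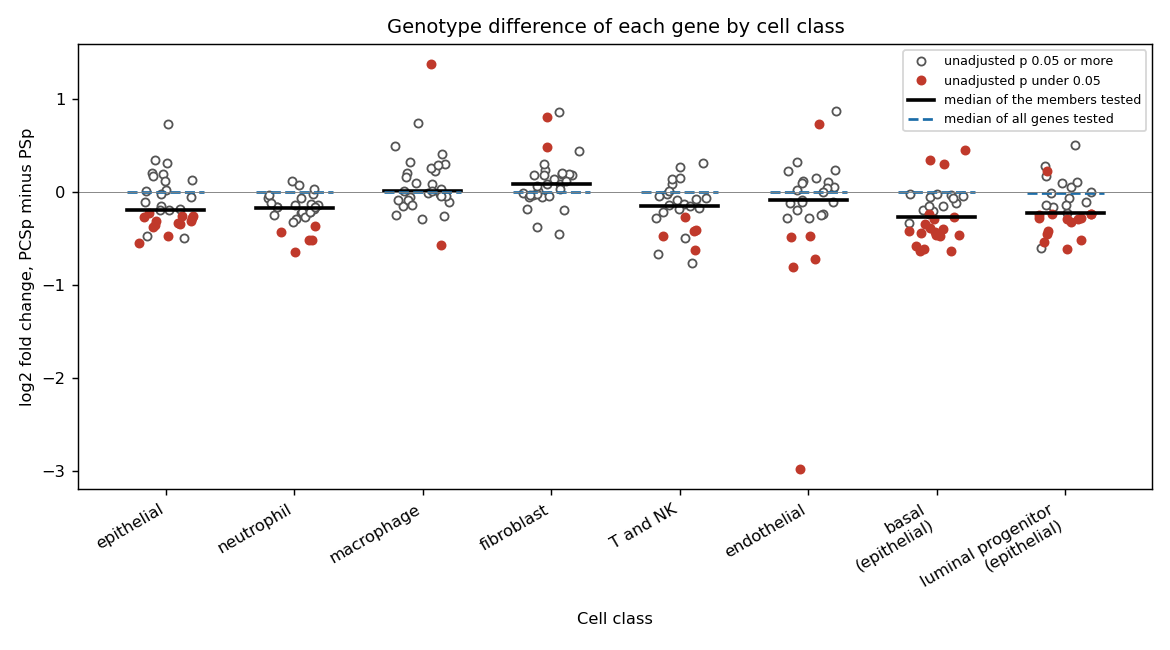
Log2 fold change (PCSp minus PSp) of each member tested in 6 cell classes and 2 epithelial subclasses, with 1 point per gene (filled red where the unadjusted edgeR p is under 0.05). Black bars are the members' medians and dashed bars those of all genes tested; the lone low endothelial point is Slc2a3 at -2.98.

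In neutrophil-like cells 0 of 28 members passed by edgeR, where 0.0874% of 9156 genes did, and DESeq2 called 0 members and 0.186% of genes. Aldoc, Eno2, Car9 and Adm were too low to be tested. By unadjusted p, 5 members were lower (4.96% of all genes) and 0 were higher (3.93%). Of those tested, 25 were lower in PCSp, with a median of -0.18. Over all genes tested 50.9% were lower and the median was -0.006. Hk2 was at 308 and 240 CPM in PSp and 214 and 152 in PCSp mice, or on the log2 scale -0.65 (SE 0.20, adjusted p = 0.387 by edgeR). Pfkfb3 was at 98.2 and 85.5 against 59.2 and 72.7 CPM, Slc2a1 at the values given above and P4ha1 at 281 and 184 against 178 and 160. None of these 4 genes overlapped, but for P4ha1 the 2 middle mice were nearly equal. Here and in the classes below, the genes printed had the smallest unadjusted p, so a lack of overlap follows largely from that choice. The share of all genes without overlap was not computed for these classes.

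The make-up of the neutrophils differed as well. Cluster 11, which is low in Hk2 and P4ha1, was 38.9% and 39.1% of neutrophil-like cells in PSp and 45.1% and 59.9% in PCSp mice. The CPM summed over all members overlapped between genotypes inside cluster 2 (8950 and 9668 in PSp, 9122 and 9612 in PCSp mice). It overlapped inside cluster 11 too (8305 and 8768 against 7822 and 8374). Only inside cluster 3 were both PCSp sums lower (13554 and 10147 against 9668 and 9874). Inside cluster 2, Hk2 was at 366 and 327 CPM in PSp and 299 and 303 in PCSp mice, and inside cluster 11 at 197 and 126 against 107 and 95.5. In cluster 3 it overlapped (386 and 271 against 286 and 161). P4ha1 overlapped between genotypes in each of the 3 clusters, and PSp mouse 1 stood apart in cluster 3 (618 CPM, against 322, 330 and 243 in the others). The 10 genes of tissue handling in neutrophil-like cells, mostly immediate-early and heat-shock genes, also summed higher in PSp (16654 and 14372 CPM) than in PCSp mice (11899 and 11542), and their part in these differences was not tested.

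In T and NK-like cells 0 of 26 members passed by edgeR, where 0.472% of 7832 genes did, and DESeq2 called 0 members and 0.383% of genes. By unadjusted p, 5 were lower (4.52% of all genes) and 0 higher (3.69%). Eno1 was at 275 and 304 CPM in PSp and 213 and 217 in PCSp mice, or on the log2 scale -0.48 (SE 0.11, adjusted p = 0.104 by edgeR). Aldoa (416 and 387 against 336 and 352 CPM), Tpi1 (100.2 and 100.6 against 70.3 and 88.3) and P4ha1 (60.1 and 56.9 against 44.8 and 45.5) also did not overlap. Hspa1a, a heat-shock gene of the tissue handling list, fell in these cells: it had 75.8 and 80.8 CPM with PSp but 33.8 and 23.7 with PCSp (log2 fold change -1.45 ± 0.21 SE, adjusted p = 0.00478 by edgeR).

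In endothelial-like cells 0 of 27 members passed by edgeR and 0.0% of 9164 genes did. DESeq2 called 0 members and 0.0546% of genes. By unadjusted p, 5 members were lower (2.49% of all genes) and 1 was higher (3.44%). Slc2a3 had the greatest change of any member in any class, at 12.9 and 19.6 CPM in PSp and 1.92 and 2.12 in PCSp mice (15, 26, 3 and 2 UMIs). Its log2 fold change was -2.98 (SE 0.55, adjusted p = 0.244 by edgeR), and it rests on these few UMIs. Pfkfb3 was at 66.9 and 61.9 against 132 and 78.5 CPM, the other direction. Pkm was at 351 and 419 against 272 and 282 CPM, and Hilpda at 20.6 and 27.9 against 14.7 and 12.7.

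In macrophage-like and fibroblast-like cells the members' medians were near 0. In macrophage-like cells 0 of 30 members passed by edgeR (0.0797% of 10032 genes did), DESeq2 called 0 members and 0.219% of genes, and by unadjusted p 1 member was lower (3.28% of all genes) and 1 higher (3.29%). The higher one was Ankrd37, a target of the factor with ankyrin repeats, at 3.73 and 7.95 CPM in PSp and 10.1 and 21.5 in PCSp mice (log2 fold change 1.37, SE 0.46, adjusted p = 0.632 by edgeR). Pdk1, a kinase that inhibits pyruvate dehydrogenase, was at 18.3 and 19.7 against 11.6 and 14.9 CPM. Hk2 (113 and 112 against 99.3 and 95.1) and Bnip3l (104 and 87.4 against 106 and 156) did not overlap either. The members' median was 0.01.

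In fibroblast-like cells 0 of 30 members passed by edgeR (0.0% of 12176 genes did), and DESeq2 called 0 members and 0.0493% of genes. By unadjusted p, 0 members were lower (1.86% of all genes) and 2 were higher (2.09%). Ddit4 was at 17.6 and 12.9 CPM in PSp and 28.9 and 25.2 in PCSp mice, or on the log2 scale 0.80 (SE 0.20, adjusted p = 0.997 by edgeR). Slc2a1 was at 11.95 and 10.96 against 14.7 and 18.0 CPM. Hilpda stood at 18.5 and 14.3 against 13.9 and 10.3 CPM, while Egln3 overlapped (1.46 and 3.09 against 5.41 and 2.69 CPM). The members' median was 0.08.

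Whether the genotype effect differed between epithelium and another class was tested as an interaction, with each mouse as its own block. No member passed by edgeR: 0 of 32 against neutrophil-like cells (0.102% of genes passed), macrophage-like cells (0.0128%), fibroblast-like cells (0.0%) and endothelial-like cells (0.439%), and 0 of 31 against T and NK-like cells (0.376%). At an unadjusted p under 0.05, in either direction, there were 7 members against neutrophil-like cells (6.43% of all genes), 5 against macrophage-like (4.71%), 7 against fibroblast-like (4.8%), 5 against endothelial-like (4.99%) and 4 against T and NK-like cells (4.96%). DESeq2 was not run on this term. The nearest was P4ha1, whose log2 fold change was higher by 0.69 (SE 0.14) in epithelial-like than in neutrophil-like cells, with an adjusted p of 0.0517 by edgeR.

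No gene of the other lists passed in epithelial-like cells. Of 42 other glycolysis isozymes and partners, 37 were tested in epithelial-like cells: 0 passed in either direction and their median was 0.02. Fbp2, a fructose bisphosphatase of the reverse pathway, had the smallest p there, at 14.7 and 15.1 CPM in PSp and 23.0 and 21.5 in PCSp mice (log2 fold change 0.56, SE 0.09, adjusted p = 0.372 by edgeR). Pgm1, a phosphoglucomutase, was at 26.9 and 25.7 against 22.6 and 22.7 CPM. Of 18 partners and regulators of the factor 17 were tested, 0 passed and the median was -0.03. Hspa8, Epas1 and Crebbp had the smallest p, with adjusted p from 0.685 to 0.744 by edgeR. Of 7 genes of the pentose phosphate branch 0 passed, with G6pdx, Tkt and Rpia nearest (adjusted p from 0.646 to 0.707 by edgeR).

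Of 42 other genes known to respond to the factor, 41 were tested in epithelial-like cells, 0 passed and the median was -0.05. Arg1 (arginase), Edn1 (endothelin) and Ccng2 had the smallest p. Arg1 was at 270 and 198 CPM in PSp and 124 and 113 in PCSp mice (log2 fold change -0.998, SE 0.15, adjusted p = 0.372 by edgeR). In basal-like cells Arg1 was the 1 gene of 39 tested that passed, and it fell: PSp had 343 and 239 CPM, PCSp 114 and 94.1 (log2 fold change -1.51 ± 0.17 SE, adjusted p = 0.0364 by edgeR). Hspa1a fell in basal-like cells too, with 162 and 165 CPM for PSp but 110 and 103 for PCSp (-0.65 ± 0.08 SE, adjusted p = 0.0473 by edgeR). In neutrophil-like cells 0 of 31 tested genes of this list passed and the median was -0.16. Of the 10 tissue handling genes, Hspa1a, Dusp1 and Fos had the smallest p in all epithelial-like cells, where 0 passed.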

How the data were processed

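The authors deposited raw UMI counts for each gene in each barcode, with no normalization; Cell Ranger 6.1.2 and mm10 are named in the submitters' processing notes. The members, gene lists and tests were chosen with earlier results of these data known. Barcodes needed at least 500 UMIs, 300 genes and at most 20% mitochondrial UMIs. The automatic doublet threshold marked at most 0.775% of a library, so a fixed number of barcodes with the highest scores was removed instead (0.8% per 1000 barcodes; 237 to 572 per library). Cells were clustered with scanpy 1.11.5 (2000 variable genes, 30 components, 15 neighbours, Leiden resolution 1, no batch correction) and clusters named from markers; epithelial-like cells were clustered again. Naming needed at least 3 markers with a log2 fold of 1 over the median cluster.

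UMIs were summed per mouse and class (at least 50 cells in every mouse) and tested with edgeR 4.0.16 (R 4.3.3, TMM, filterByExpr, two-sided, threshold 0.05) with 2 residual degrees of freedom; the biological coefficient of variation in epithelium was 15.2%. DESeq2 1.42.0 was an alternative, as were no filter on low counts, leaving out each mouse, a stricter cell filter, no doublet removal and Leiden resolution 2. The procedure was tested on simulated data. Libraries differed far beyond counting noise (chi-square per degree of freedom 24.6 to 95.1). Values are printed for the 12 members of smallest unadjusted p in epithelial-like cells, the 4 in each other class, the 3 of highest mean CPM per class, members 4 times above the second class, and in other lists for genes that passed or the 3 of smallest p in epithelial-like cells; further members of each role were named after their values were seen. Gene positions are from GENCODE M21 (GRCm38). Replicate p-values measure the spread between single tumours. Some items, among them part of the genotype shared by all mice and 1 gene of the other lists, are not reported here.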

Additional observations from a re-analysis of the deposited data

How the results depend on the processing

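No member passed in the main edgeR fits, and the counts that moved were small outside basal-like cells. DESeq2 called 1 member in epithelial-like (1.09% of all genes) and 11 in basal-like cells (2.02%). Without the filter on low counts, 16 members passed in basal-like cells (14 lower; 5.08% of all genes passed), 2 in endothelial-like (0.792%), 1 each in neutrophil-like (1.14%), fibroblast-like (0.808%) and T and NK-like cells (0.904%), and 5 in the interaction tests (0.443%). No doublet removal and Leiden resolution 2 each gave 1 in the interaction tests (P4ha1 against neutrophils; 0.19% and 0.198% of all genes). Leaving out 1 mouse gave 0 to 3 members in basal-like cells (Bnip3, Egln3 and Pgk1 without PSp mouse 2, where 0.862% of all genes passed), 0 to 1 in neutrophil-like (Hk2 without PCSp mouse 1; 2.52%), 0 to 2 in macrophage-like (Hilpda without PSp mouse 1, Ankrd37 without PSp mouse 2, both without PCSp mouse 1; 1.17% to 2.59%), 0 to 2 in T and NK-like (Eno1 and Hk2 without PSp mouse 1; 1.35%) and 2 to 4 in the interaction tests (among them Egln3, Ddit4, Slc16a3 and Pgk1; 0.245% to 0.637%). A group of 1 mouse was then assumed to vary like the other group. In epithelial-like, fibroblast-like and endothelial-like cells leaving out a mouse gave 0. Members highest in neutrophil-like cells numbered 19 by CPM, 17 by thinned share and 3 by unthinned share. These were not all the same members. Over all classes, the highest class by CPM was also the highest by thinned share for 22 of 32 members, and by unthinned share for 9 of 32. Of 356 fold changes of named members under an alternative, 0 changed sign. These members were chosen for the smallest unadjusted p in the main edgeR fits, and the alternatives reuse the same mice. Changes of sign were therefore unlikely from the start, so the 0 does not show how stable the results are. The members' median in epithelial-like cells ran from -0.22 to -0.16, and in basal-like cells from -0.35 to -0.19; in macrophage-like cells it changed sign (-0.10 to 0.11). Basal-like cells of at least 3000 UMIs, chosen after seeing the data, gave 0. Doublet removal and resolution were not varied for basal-like cells, and DESeq2 was not run on the interaction. No paired analysis was possible because the labels give the mice no shared numbers. With 2 mice per genotype, small changes are not detectable.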
